A study of Homo sapiens with 4 samples.

Results

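The S100 calcium-binding proteins considered here are the 8 genes S100A2, S100A3, S100A4, S100A6, S100A10, S100A11, S100A13 and S100A16, chosen by symbol from the 25559 genes of the count tables. All 8 had a row in every table, and 6 of them passed the filter on low counts and were tested. The libraries came from HGC-27, an established line from a gastric cancer that had spread to a lymph node. There were 2 libraries of wild-type control cells and 2 of RUNX3 knock-out (RUNX3 KO) cells, grown in the same medium with fetal bovine serum and without a further treatment. The KO had been made with lentiviral Cas9 and a guide against RUNX3, a Runt-domain transcription factor, followed by puromycin selection and single-cell cloning. Whether the control cells went through any of these steps is not given in the sources used here. The number of clones is not given there either, nor is whether the replicates were separate cultures. P-values therefore measure the spread between these libraries, which may be technical. Clone differences and effects of transduction and selection cannot be told apart from the knock-out.

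S100 proteins are small proteins that bind calcium through a pair of EF-hand loops and mostly work as dimers. Calcium exposes a surface on them that docks onto other proteins, among them annexins and non-muscle myosin, and several members are also released and act on receptors outside the cell. Most of the genes lie in a cluster on chromosome 1, and in cancers members such as S100A4 are known for their links to cell movement and metastasis.

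In RUNX3 KO cells, 3 of the 6 tested genes fell and none rose by edgeR, also at an unadjusted p under 0.05 (0 genes) and by DESeq2 and limma-voom (0 genes each). S100A4 fell to 28.3% of its control level, S100A11 to 70.2% and S100A13 to 83.4%. S100A10, S100A16 and S100A2 did not pass the test, S100A3 was too low to be tested and S100A6 was at or next to 0 in every library. Of all 12967 tested genes, 24.4% were called lower, 24.5% higher and 48.9% in either direction at the same threshold (an adjusted p under 0.05), so 3 called genes of 6 are about as many as that background gives. The background depends on the test, with 1863 lower and 1829 higher genes by DESeq2, 1531 and 1483 without RUNX3 KO replicate 1, and 1378 and 1285 without replicate 2, in place of 3158 and 3183. The lower members were 3 by DESeq2 and without replicate 1, and 2 without replicate 2. The libraries of both groups did not overlap for the same 3 genes, as they did not for 72.7% of all tested genes (36.4% lower and 36.3% higher). With the call rule given in the study's methods, 2-fold or more and an unadjusted p up to 0.05, only S100A4 of the 6 was lower, against 4.01% of all tested genes, and no member was higher, against 2.11%. Levels are given as CPM, edgeR's counts scaled to normalized library size, with n = 2 libraries per group, and edgeR adjusted p stands for the Benjamini-Hochberg value of its quasi-likelihood test over all genes tested.

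RNA of RUNX3, the targeted gene, was still counted in the KO cells. The study checked its deletion at both RNA and protein levels and reported no RUNX3 protein by immunoblot. Read counts do not measure protein. RUNX3 had 351 and 308 counts in the control libraries against 225 and 185 in the KO libraries, without overlap. Its log2 change was -0.70 ± 0.0961 (SE; edgeR adjusted p = 1.43e-09). The call did not hold without RUNX3 KO replicate 2 (-0.55, edgeR adjusted p = 0.0649).

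Promoter sequences are shown for the 3 genes that fell and for S100A10, another abundant member, whose level hardly differed. They are RefSeq windows from 250 bases before to 50 bases after the start of the gene (GRCh38.p14), all on the minus strand of chromosome 1 and written 5′ to 3′ along the gene. All 8 genes had at least 1 window. Capitals mark the core letters of the RUNX motif, TGTGGT or TGCGGT, searched on both strands, so that a match on the opposite strand reads as the reverse complement.
S100A4, chr1:153545757-153546056: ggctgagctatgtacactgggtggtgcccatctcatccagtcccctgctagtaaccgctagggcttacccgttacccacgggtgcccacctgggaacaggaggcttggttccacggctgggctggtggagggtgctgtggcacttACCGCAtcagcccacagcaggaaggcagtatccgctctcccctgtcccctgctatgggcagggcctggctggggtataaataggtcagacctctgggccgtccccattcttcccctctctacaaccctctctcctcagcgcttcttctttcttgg
S100A11, chr1:152036955-152037254: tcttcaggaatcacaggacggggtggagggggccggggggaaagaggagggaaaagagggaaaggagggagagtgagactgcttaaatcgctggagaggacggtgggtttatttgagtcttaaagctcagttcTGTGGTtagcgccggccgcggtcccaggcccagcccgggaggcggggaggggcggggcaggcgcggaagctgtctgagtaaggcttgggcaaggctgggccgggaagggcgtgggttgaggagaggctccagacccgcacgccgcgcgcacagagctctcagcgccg
S100A13, the first of its windows, chr1:153634312-153634611: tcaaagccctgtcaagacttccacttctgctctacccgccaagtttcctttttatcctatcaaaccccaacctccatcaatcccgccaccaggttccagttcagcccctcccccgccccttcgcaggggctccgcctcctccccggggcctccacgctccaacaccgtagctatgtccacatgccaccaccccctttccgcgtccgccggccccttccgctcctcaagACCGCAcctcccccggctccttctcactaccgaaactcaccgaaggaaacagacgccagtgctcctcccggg
S100A10, chr1:151993810-151994109: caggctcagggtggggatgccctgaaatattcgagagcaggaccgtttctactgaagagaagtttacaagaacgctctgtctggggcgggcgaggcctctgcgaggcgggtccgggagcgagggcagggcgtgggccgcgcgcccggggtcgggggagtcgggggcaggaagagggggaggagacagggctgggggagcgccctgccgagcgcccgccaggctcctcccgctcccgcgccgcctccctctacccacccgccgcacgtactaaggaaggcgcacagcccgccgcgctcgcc
In S100A4 the match was to TGCGGT on the opposite strand, with its first base at -105 from the start site. S100A11 had TGTGGT on the gene's own strand, from -117, and S100A13 had TGCGGT on the opposite strand, from -22. S100A10 had no match. The other 2 windows of S100A13 had no match either. Among the 12 windows of the 8 genes, 4 held a match, the remaining one being 1 of the 2 windows of S100A2. Over the whole table, 19.6% of 35116 windows and 22.9% of 27305 genes held one. The difference was not tested, and the windows printed were picked by the change of the gene and, for S100A13, by the match. A match is a run of letters, and whether RUNX3 binds there was not measured in these libraries. The study mapped RUNX3 binding in HGC-27 control and KO cells by ChIP-seq, and those data were not used here.

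S100A4, also called metastasin, binds the heavy chain of non-muscle myosin IIA and is known to promote cell motility. It lies on chromosome 1 from 153516089 to 153522612 (hg19, minus strand). Control replicate 1 had 682 counts and replicate 2 had 709, while KO replicate 1 had 202 and replicate 2 had 195. These are levels of 57.8 and 60.1 CPM in control cells and of 17.1 and 16.2 CPM in KO cells. Both KO libraries were far below both control libraries, and the libraries of a group lay close together. The means were 58.9 ± 1.63 CPM (SD, n = 2) and 16.7 ± 0.633 CPM (SD, n = 2), a log2 change of -1.82 ± 0.0787 (SE; edgeR adjusted p = 1.22e-36). This is 3.53-fold lower, with a 95% interval of 25.4% to 31.5% of the control level. S100A4 ranked 204 by fold change and 41 by p among the genes that were lower.

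S100A11, or calgizzarin, binds annexin A1. It lies on chromosome 1 from 152004982 to 152020383 (minus strand), and it had the most counts of the 8 genes in control cells. The 1849 and 1798 counts of the control libraries compare with 1274 and 1311 in the KO libraries. Levels were 157 and 152 CPM in control cells and 108 and 109 CPM in KO cells, again without overlap. S100A11 therefore fell by 0.51 on the log2 scale (SE 0.0407; edgeR adjusted p = 1.08e-19), with mean levels of 154 ± 3.01 CPM (SD, n = 2) in control and 108 ± 0.784 CPM (SD, n = 2) in KO cells. The 95% interval ran from 66.4% to 74.3% of the control level.

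S100A13 takes part in the release of FGF1 and interleukin 1 alpha, which leave the cell without a signal peptide. It lies on chromosome 1 from 153591263 to 153603836 (minus strand). It had 671 and 689 counts in control cells, and 587 and 558 in KO cells. The groups did not overlap, with 56.8 and 58.4 CPM against 49.7 and 46.4 CPM, but the step between them was small. The log2 change was -0.26 ± 0.0616 (SE; edgeR adjusted p = 0.000206), with a 95% interval of 76.6% to 90.8% of the control level. The call did not hold without RUNX3 KO replicate 2, where the log2 fold change was -0.21 with an edgeR adjusted p of 0.0790. S100A13 overlaps S100A1 on the opposite strand, with 235 of its 2216 exonic bases inside exons of that gene and none in its MANE Select transcript. Whether the counting used strand is not given in the sources used here, so reads of the shared part are uncertain. S100A1 had 5 counts in each library. A long non-coding RNA on the same strand, which has no row in the count tables, shares 225 of the 477 bases of the S100A13 MANE Select transcript, and its reads cannot be told apart there.

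S100A10, also known as p11, is the member that does not depend on calcium. It binds annexin A2 and brings the pair to the cell surface, where it takes up plasminogen. The gene lies on chromosome 1 from 151955391 to 151966335 (minus strand), next to S100A11. Its counts were 1351 and 1365 in control cells and 1370 and 1369 in KO cells. The 4 libraries spanned 114 to 116 CPM and the groups overlapped. The log2 change was -0.0011 ± 0.0426 (SE; edgeR adjusted p = 0.986), and the 95% interval of 94.2% to 106% of the control level leaves out a change of the size seen in S100A11 or S100A13. ANXA2, which encodes its annexin partner, had a log2 fold change of 0.05 (adjusted p = 0.0648), and S100A10 had 0.155 and 0.151 counts per ANXA2 count in control cells and 0.148 and 0.147 in KO cells.

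**Figure D1:**
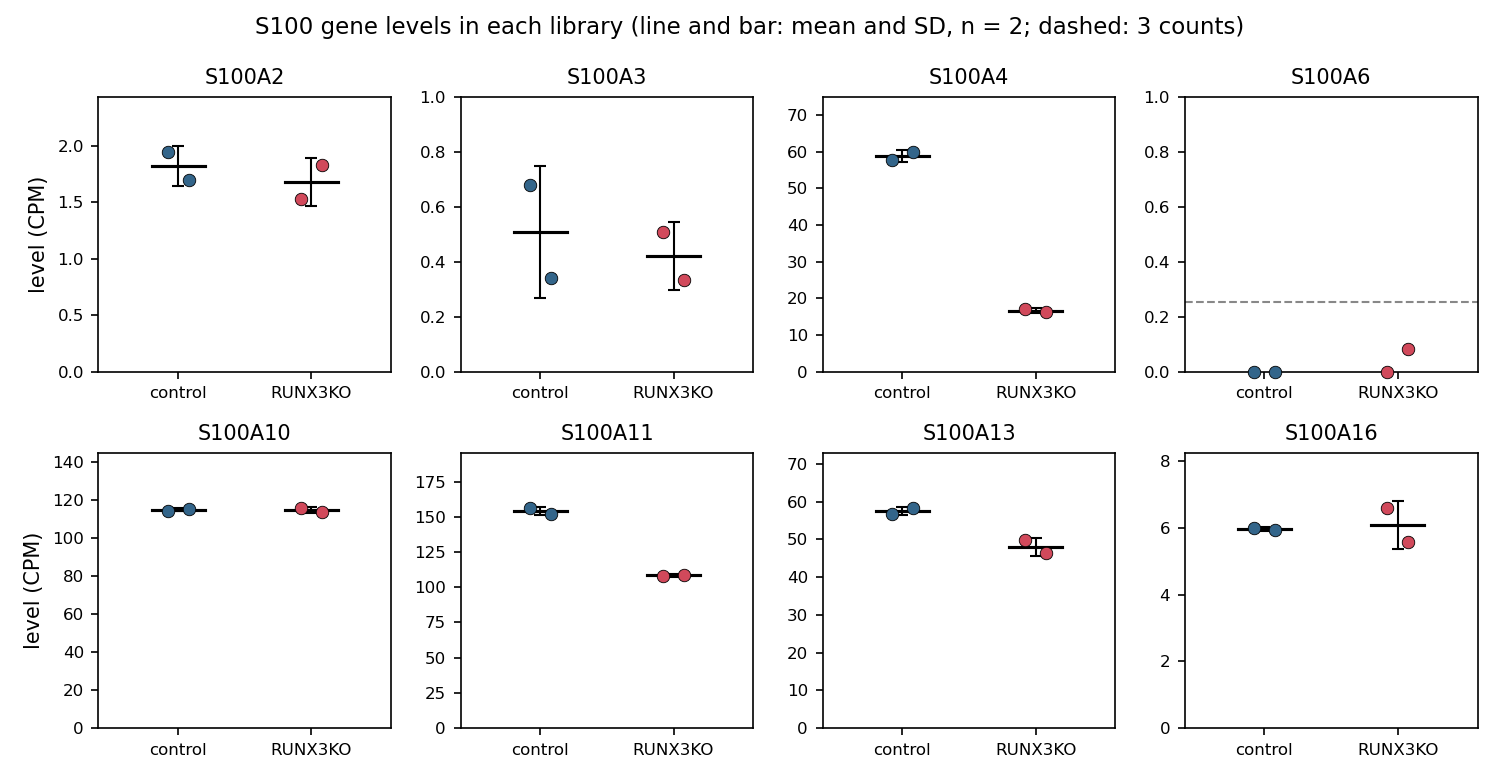
Level of each of the 8 S100 genes in CPM (vertical axes, each from 0) in the 2 control and 2 RUNX3KO libraries, with a point for each library and a line and bar for mean and SD (n = 2); S100A6 has points only, with a dashed line at 3 counts. The KO points of S100A4, S100A11 and S100A13 lie below the control points, and those of S100A10, S100A16, S100A2 and S100A3 overlap them.

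S100A16, a broadly expressed member, and S100A2, which is found in the nucleus, were low. S100A16, from 153579362 to 153585621, had 71 and 70 counts in control cells and 78 and 67 in KO cells, so that the KO libraries lay on either side of the controls. Its log2 change was 0.03 ± 0.174 (SE; edgeR adjusted p = 0.913), and at this depth the 95% interval of 80.2% to 129% of the control level leaves room for a change of the size of S100A13. S100A2, from 153533584 to 153540366, had 23 and 20 counts in control cells and 18 and 22 in KO cells, with overlapping groups. Here the log2 change was -0.12 ± 0.310 (SE; edgeR adjusted p = 0.789) and the interval of 60.1% to 141% was the widest of the 6 genes. Neither gene therefore shows a difference, and the precision for S100A2 is poor.

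S100A3, a cysteine-rich member known from hair, spans 153519805 to 153521734 within the longer S100A4 locus, and exons of these genes do not overlap in the GENCODE annotation. It had 8 and 4 counts in control cells and 6 and 4 in KO cells. Groups overlapped, and a fit without a filter gave a log2 fold change of -0.27 (SE 0.559). S100A6, or calcyclin, spans 153507075 to 153508720. It had no count in either control library and 0 and 1 in the KO libraries, where 3 counts would be 0.254 CPM at most, so no fold can be given. Reads that aligned to several places (8.95% to 9.07% of each table) are not assigned to genes, and their part in the S100A6 counts was not tested.

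**Figure D2:**
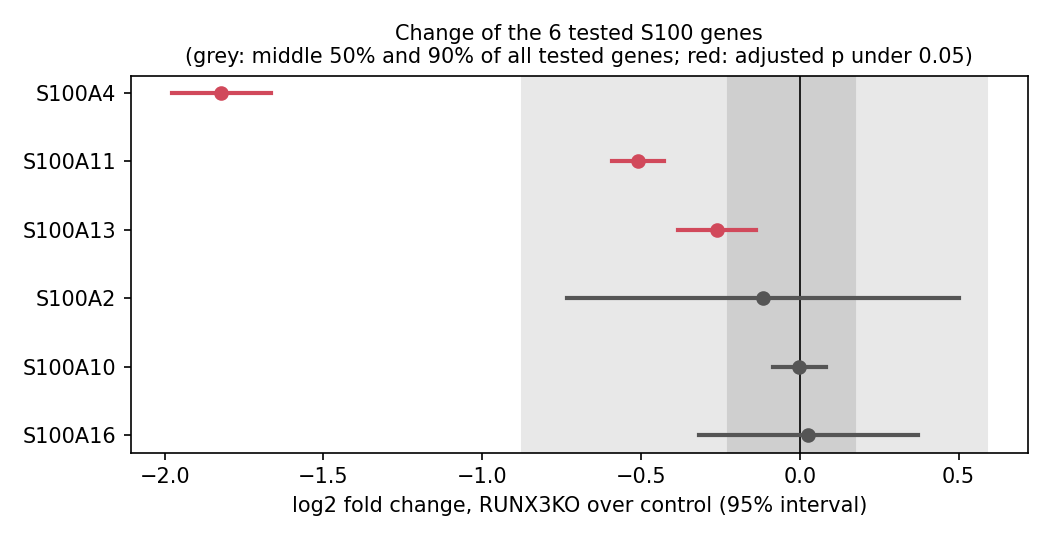
Log2 fold change of RUNX3KO over control (horizontal axis) for the 6 tested S100 genes, with 95% intervals, over grey bands for the middle 50% and 90% of all tested genes. S100A4 at -1.82 lies outside the wider band of -0.87 to 0.59, S100A11 at -0.51 lies between the bands' edges, and the intervals of S100A10, S100A16 and S100A2 include 0.

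Per length, S100A11 was also the highest of the 8 genes. With the length of the MANE Select transcript, control cells had 274 ± 5.35 RPKM (reads per kilobase of transcript, scaled like CPM; SD, n = 2) of S100A11, 171 ± 1.30 of S100A10, 121 ± 2.30 of S100A13 and 115 ± 3.19 of S100A4. The others followed at 5.10 RPKM for S100A16, 1.86 for S100A2 and 0.685 for S100A3. In KO cells S100A11 was at 193 ± 1.39 RPKM and remained above S100A10 at 171 ± 2.32, while S100A4 was at 32.5 ± 1.23 and S100A13 at 101 ± 4.92. How S100A13 and S100A4 compare depends on the length, since over all annotated exons they were at 26.0 and 62.3 RPKM in control cells and at 21.7 and 17.6 RPKM in KO cells.

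Reads on the 8 genes together numbered 4655 in each control library, and 3535 and 3527 in the KO libraries. This was 0.0397% of gene counts in control cells and 0.0294% in KO cells. Ratios within a library do not depend on scaling. S100A4 had 0.505 and 0.519 counts per S100A10 count in control cells and 0.147 and 0.142 in KO cells. For S100A11 the ratio went from 1.37 and 1.32 to 0.930 and 0.958, so that it was above S100A10 in both control libraries and below it in both KO libraries. For S100A13 it went from 0.497 and 0.505 to 0.428 and 0.408.

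**Figure D3:**
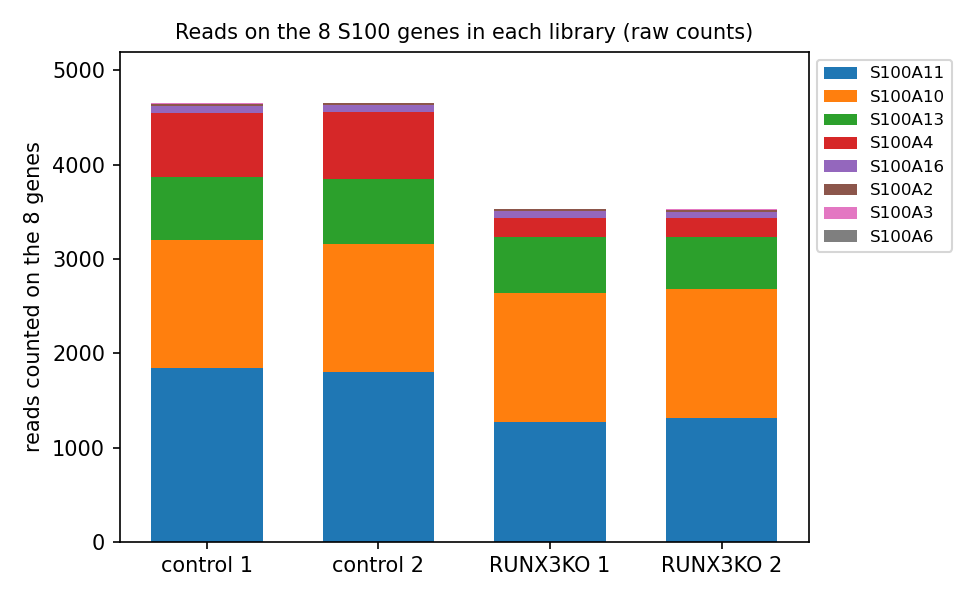
Raw counts of the 8 S100 genes (vertical axis) stacked for each of the 4 libraries, with a colour for each gene. The stacks stand at 4655 in both control libraries and at 3535 and 3527 in the KO libraries, with a smaller S100A4 and S100A11 segment and an S100A10 segment of similar height.

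Genes around the cluster moved in both directions and by less than S100A4. They were the 20 nearest tested genes in gene order on each side of the stretch from S100A6 to S100A13, S100 genes left out. On the side of lower coordinates, their starts lay at -2473 to -1774 kb from that of S100A4, beyond S100A10 and S100A11. On the other side, starts lay at 90.4 to 1005 kb. Of these 40 genes, 9 were lower, 7 higher and 24 did not pass the test. Their median log2 change was -0.0089, with a range of -0.61 to 0.53. Without RUNX3 KO replicate 2, 3 were lower, and 3 were higher when KO replicate 1 or replicate 2 was left out. Over all tested genes the shares were 24.4% lower and 24.5% higher, and the median was -0.0021. None of the 40 neighbours was as low as S100A4, and 3 were as low as S100A11. No tested gene other than S100 genes lies within the stretch. Next to S100A4 lie S100A2 at -0.12 and, on the other side, S100A5 and S100A6, which had at most 2 counts in any library.

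**Figure D4:**
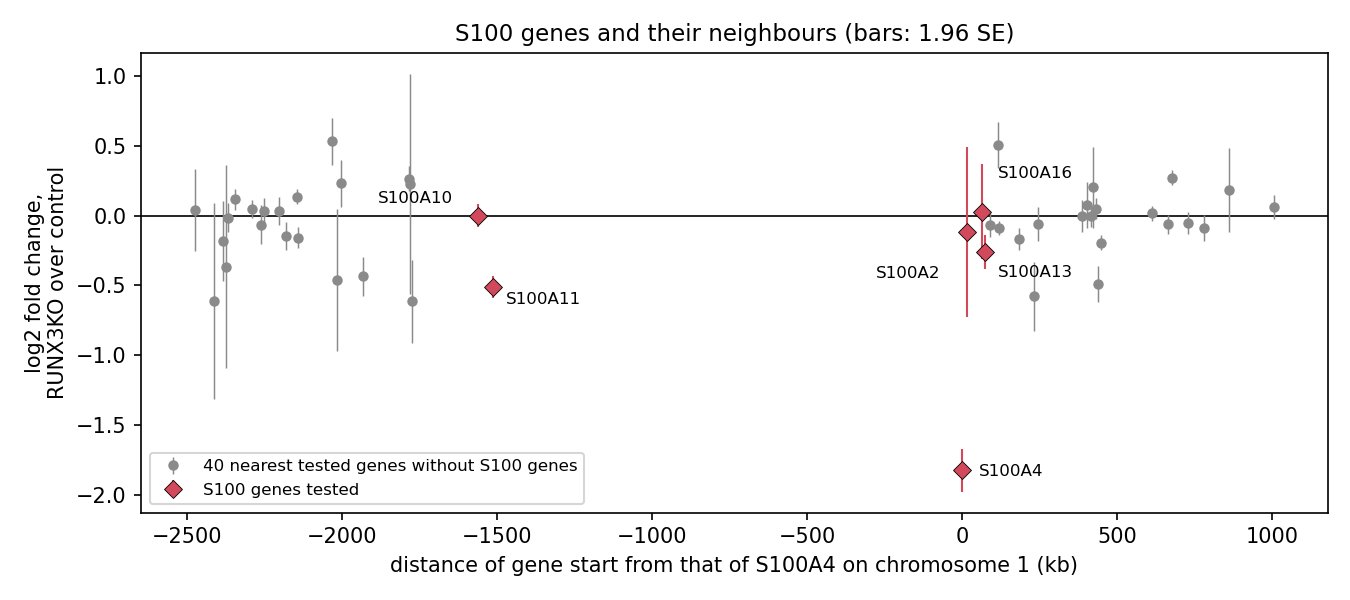
Log2 fold change (vertical axis, bars for a normal 95% interval) against the distance of the gene start from that of S100A4 (horizontal axis, kb) for the 6 tested S100 genes and their 40 tested neighbours. The neighbours lie between -0.61 and 0.53, and S100A4 lies alone at -1.82.

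The rest of the family was hardly counted. Of 13 other S100 genes, 12 had at most 3 counts in every library, and none could be tested. S100A1, the member known from heart muscle, had 5 counts in each library. S100A8, S100A9 and S100A12, which mark myeloid cells, and S100B, S100G and S100Z had 0 counts throughout, while S100P had at most 1 and S100A14 at most 2. Of the 7 fused-type S100 genes of skin, TCHH had at most 4 counts and the other 6 had none.

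Genes of proteins that S100 members bind were mostly abundant in RNA and moved in both directions. Of 27 listed partner genes, 23 were tested, of which 9 were lower and 7 higher, against 24.4% and 24.5% of all tested genes, their median log2 change being 0.03, and none changed by 2-fold or more. When RUNX3 KO replicate 1 or replicate 2 was left out, 5 were lower. MYH9, the myosin IIA heavy chain bound by S100A4, fell by 0.41 on the log2 scale, from 9396 and 8858 to 6843 and 7069 counts. MYH10, the IIB heavy chain, was at 0.03 and PPFIBP1, or liprin beta 1, at -0.0049, and neither passed the test. AHNAK, a scaffold that joins S100A10 and annexin A2, fell by 0.37, and HLTF, a chromatin remodeler bound by the same pair, fell by 0.18. ANXA1, the annexin of S100A11, was at 0.07 with an adjusted p of 0.0498, at the very edge of the threshold. CACYBP, the calcyclin-binding protein, rose by 0.27, while its ligand S100A6 was at or next to 0, and SUGT1 was at 0.08 (adjusted p = 0.109). The largest rise was that of IQGAP1, a scaffold of the actin cortex, by 0.67, followed by the cochaperone STIP1 by 0.36, and ANXA5 fell by 0.42. FGF1 and IL1A, the cargoes of S100A13, had 0 counts in every library, and SYT1, which works with them, fell by 0.56 on 76 and 72 against 48 and 53 counts.

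Receptors and surface partners of released S100 proteins gave 3 lower and 3 higher genes of 8 tested, out of 11 listed, beside 24.4% lower and 24.5% higher over all tested genes. The median log2 change of the 8 was -0.11. AGER, the RAGE receptor, fell by 0.61 from 115 and 120 to 67 and 88 counts, and the adhesion receptors ALCAM and MCAM fell by 0.30 and 0.29. BSG, or basigin, rose by 0.26. CD36 rose by 3.79, from 1 and 6 counts to 59 and 42, and ERBB4 by 1.31, from 28 and 37 to 76 and 87. Counts of TLR4 were 0 in every library. The mean levels of AGER, CD36 and ERBB4 were below 10 CPM in both groups.

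Other genes with EF-hands showed no common direction. Among 42 listed, 37 were tested, and 12 were lower, 11 higher and 14 did not pass, with a median of 0.05. Over all tested genes, 24.4% were lower, 24.5% higher and 48.9% called in either direction, and the difference in share was not tested. DESeq2 called 1863 lower and 1829 higher over all genes, and 9 lower and 9 higher among the EF-hand genes. Without RUNX3 KO replicate 1, 6 were lower and 5 higher, and without replicate 2, 4 were higher. The neuronal calcium sensor VSNL1 went from 230 and 243 counts to 1 and 2, at least 78.8-fold lower with 3 counts per library as the floor. SPARC and the calpain CAPN2 fell by 0.46 and 0.45, and CIB1, PDCD6 and RCN1 rose by 0.83, 0.76 and 0.40. Except for VSNL1 and LCP1, which was at 6 and 6 against 18 and 18 counts, no EF-hand gene on the list changed by 2-fold.

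Across all tested genes, the nearest to S100A4 in pattern were NAV3, CXorf59 and RUNX2. Likeness was the Euclidean distance of log2(CPM + 0.5) after subtraction of the gene's mean, over 4 libraries, and was 0.0583, 0.0763 and 0.0766. Only 4 genes came within 0.1 of S100A4, in contrast to 1861 for S100A10, and with 4 libraries in 2 groups this likeness is mainly one of fold change. NAV3 and RUNX2 had log2 fold changes of -1.80 and -1.91. For CXorf59, a gene of few counts in KO cells, the pseudocount shrinks a fitted -6.83.

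The libraries held 11731401 to 12110876 gene counts. Control libraries differed from each other with a ratio of chi-square to degrees of freedom of 1.22 and KO libraries with one of 1.18, little more than counting noise, whereas libraries of different groups gave 17.1 and 17.3. Of 14 markers of gastric and other epithelium, 10 had at most 3 counts in every library, among them EPCAM, KRT19, MUC5AC, TFF1 and CLDN18, so that the RNA lacks the defining genes of differentiated gastric epithelium. The summed level of these 14 genes was 10.7 and 11.4 CPM in control cells and 16.2 and 17.6 CPM in KO cells, and 3 of them were tested. KRT8 rose by 2.33 and CDH1 by 0.77 on the log2 scale, while MUC1, the most counted of the 14, was at -0.14 (edgeR adjusted p = 0.474) with 87 and 100 counts in control and 86 and 85 in KO cells. That of 6 mesenchymal genes, mostly VIM, was 5138 and 5105 against 3033 and 3106 CPM. All 5 tested genes of that list were lower, beside 24.4% of all tested genes, among them VIM at -0.75, SNAI2 at -1.94 and FN1 at -3.01 on the log2 scale. The mesenchymal sum was lower in KO cells, as were S100A4 and S100A11, while the epithelial sum was higher, and the part of either in the S100 changes was not tested. Summed levels of 8 blood and immune markers were 1.41 to 2.80 CPM, and PTPRC had at most 5 counts. In such bulk libraries, fewer cells that express a gene and less RNA per cell cannot be told apart.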

How the data were processed

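RNA-seq counts of 2 control and 2 RUNX3 KO libraries of HGC-27 cells were used, grouped by the sample titles. The authors deposited raw counts of reads per gene symbol for each library, without normalization. The submitters' processing notes name bcl2fastq, HISAT2 2.1.0, HTSeq and hg19, whereas the paper's methods name STAR, featureCounts with GENCODE and hg19. The tables close in the form of htseq-count. The strand setting is not given in the sources used here, although the labels name a stranded poly(A) kit. The 5 rows without a gene, 25.9% to 28.1% of all counts, were left out.

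The analysis ran in R 4.3.3, using edgeR 4.0.16 (filterByExpr with 10 as its minimum count and 15 as its minimum total, TMM scaling, glmQLFit and glmQLFTest without a replicate block), over all 12967 genes left by the filter, with Benjamini-Hochberg adjustment. CPM used TMM-normalized library sizes. A standard error was taken as the absolute log2 change over the root of F, and intervals used the test's degrees of freedom. With 2 libraries a group, an exact permutation p (two-sided) is at least 0.333 and so cannot reach 0.05. Floors of 3 counts and intervals cover counting error and the spread between these libraries only. The same steps were tested on simulated counts for this comparison, and recovered 82.5% of 200 changed genes among 12905 tested, with 4 false calls. The simulation gave every gene the same dispersion, 0.000211 as fitted to these libraries, and changed far fewer genes than were called here. It therefore cannot show how spread between clones or cultures would affect the calls.

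Gene positions and lengths came from the GENCODE annotation lifted to GRCh37 (hg19), with 21615 of 25559 symbols matched. Promoter sequences came from RefSeq (GRCh38.p14), with coordinates of that build. Named genes were the members, RUNX3, other S100 genes with over 3 counts, textbook partners of each member, the 3 genes with the smallest p in each direction of the partner, receptor and EF-hand lists, markers that check the label, and the 3 genes closest to S100A4 in pattern. The other genes named were chosen after their values were seen, and some genes of the lists are not reported here by name. The members and lists were chosen with earlier results of these data known.

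The alternatives comprised scaling by upper quartile, by library size only or by the size factors of DESeq2, no filter and at least 10 counts in every library, DESeq2 1.42.0 and limma-voom (limma 3.58.1) as tests, a replicate block, another call rule and each library left out in turn.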

Additional observations from a re-analysis of the deposited data

How the results depend on the processing

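Under the 12 alternatives that keep the call at an adjusted p under 0.05, S100A4 and S100A11 kept their direction and their call, with log2 fold changes of -1.86 to -1.78 and -0.53 to -0.49 and adjusted p-values up to 0.0149 and 0.0188. S100A13 ranged from -0.31 to -0.21 and lost its call among these 12 only without RUNX3 KO replicate 2 (-0.21, adjusted p = 0.0790), as did RUNX3 (-0.55, adjusted p = 0.0649, range -0.86 to -0.55). The genes that did not pass changed sign around 0, S100A10 to 0.0015 with no filter and over -0.0124 to 0.0127 with libraries left out, S100A16 over -0.0973 to 0.146 and S100A2 over -0.25 to 0.0091. S100A3 and S100A6 could not be fitted under the filter. Replicate numbers did not pair the libraries (correlation of deviations -0.0037), and with the replicate block S100A4 was at -1.82, S100A11 at -0.51 and S100A13 at -0.26, with no call of a member changed and 3143 lower and 3143 higher genes over all.

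The call rule of at least 2-fold left 1 lower member, S100A4, and S100A11, S100A13 and RUNX3 (-0.70) were under it. It left 520 lower and 274 higher genes, in place of 3158 lower and 3183 higher. DESeq2 called 1863 lower and 1829 higher genes and 5 lower partner genes in place of 9. With libraries left out, lower genes ranged from 1378 to 2806 and higher genes from 1285 to 2745, lower partners from 5 to 8, lower EF-hand genes from 6 to 12 and higher ones from 4 to 12, lower neighbours from 3 to 10 and higher ones from 3 to 7. The KO minus control share of the 8 members was -0.0103 percentage points of gene counts and -0.0068 of all rows. The low ends came from leaving out a KO library; in each such fit the lone library of its group is assumed to vary like the other group. The depth limits what can be said of S100A2, S100A3, S100A6 and S100A16.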
